A study of Mus musculus with 5 samples.

Results

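The 8 genes described here carry the rhythm of the circadian clock to other genes. Dbp, Tef and Hlf are activators of the PAR bZIP family (proline- and acidic-rich basic leucine zipper), and Nfil3 is a repressor at the same DNA sites. The others are the repressors Bhlhe40, Bhlhe41 and Ciart, and the nuclear receptor gene Rora. The genes were chosen by symbol, as 8 of the 49315 genes in each count table. All 8 were found and all 8 passed the filter on low counts. The study sequenced poly-A RNA from mouse hearts in 2 groups, and the values are counts of reads per gene. The HFHS-Fe group held 3 heart libraries from mice kept for 18 weeks on a diet rich in fat and sucrose. The chow-Fe group held 2 heart libraries from mice kept on standard chow. Each library is called a heart below. Every mouse, on either diet, had received a single intravenous injection of iron dextran (iron bound to polysaccharide), and its heart was flushed with saline and taken 48 hours later. There is no heart without iron here, so the comparison is between diets under iron. The sources used here do not give strain, sex, age or the hour of the day at which hearts were taken. The labels do not say that libraries of a group came from separate mice, so p-values measure the spread between these libraries, which may be technical.

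The clock is a loop of transcription factors: CLOCK and BMAL1 (gene Arntl) bind E-box sequences and switch on genes, among them those of their own repressors. Dbp is a direct E-box target, and DBP, TEF and HLF in turn bind D-box sequences, where NFIL3 competes with them as a repressor. BHLHE40 and BHLHE41 compete for E-boxes, CIART binds BMAL1 and represses it, and RORA activates Arntl through ROR elements on which the REV-ERB receptors (Nr1d1, Nr1d2) repress. In the mouse heart, several transcripts of this group cycle over the day, with Dbp and Arntl near opposite phases. No rhythm was measured here.

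The RefSeq promoter windows (GRCm38.p6, 250 bases before to 50 after each start) of 4 of these genes are shown. They are printed 5′ to 3′ on the gene's strand, with E-boxes (CACGTG) in capitals. The windows are Ciart at chr3:95882179-95882478 on the minus strand, the downstream of 2 Tef windows at chr15:81811164-81811463 on the plus strand, Bhlhe41 at chr6:145865371-145865670 on the minus strand and Dbp at chr7:45704997-45705296 on the plus strand.
Ciart: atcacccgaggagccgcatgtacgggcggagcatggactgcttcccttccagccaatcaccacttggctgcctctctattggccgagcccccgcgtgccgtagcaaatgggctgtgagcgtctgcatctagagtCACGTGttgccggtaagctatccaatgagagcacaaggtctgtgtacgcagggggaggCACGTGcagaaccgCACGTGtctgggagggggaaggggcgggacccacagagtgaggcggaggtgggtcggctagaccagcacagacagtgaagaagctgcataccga
Tef: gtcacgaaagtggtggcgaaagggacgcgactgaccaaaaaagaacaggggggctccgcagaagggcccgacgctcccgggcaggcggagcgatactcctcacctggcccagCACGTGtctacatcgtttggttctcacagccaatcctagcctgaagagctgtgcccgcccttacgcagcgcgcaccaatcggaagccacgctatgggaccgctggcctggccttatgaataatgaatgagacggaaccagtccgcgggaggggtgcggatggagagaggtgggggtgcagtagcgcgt
Bhlhe41: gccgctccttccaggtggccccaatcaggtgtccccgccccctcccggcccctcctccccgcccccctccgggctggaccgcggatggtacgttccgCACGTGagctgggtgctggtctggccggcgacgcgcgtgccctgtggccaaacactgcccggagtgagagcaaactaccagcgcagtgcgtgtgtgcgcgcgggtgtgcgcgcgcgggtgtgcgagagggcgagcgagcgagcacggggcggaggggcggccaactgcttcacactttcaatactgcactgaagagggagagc
Dbp: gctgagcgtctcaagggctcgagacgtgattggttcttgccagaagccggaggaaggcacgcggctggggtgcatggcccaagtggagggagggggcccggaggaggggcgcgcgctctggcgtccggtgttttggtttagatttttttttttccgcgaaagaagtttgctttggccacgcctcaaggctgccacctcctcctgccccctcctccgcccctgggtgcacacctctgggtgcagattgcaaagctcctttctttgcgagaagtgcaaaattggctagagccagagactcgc
Ciart held 3 E-boxes, which began 116, 58 and 44 bases before the start. Of all 32851 windows in the table, 7.15% held at least 1 E-box and 0.088% held 3 or more. Bhlhe41 and each Tef window held 1 E-box, 153, 127 and 138 bases before the start in that order. Nfil3 held a ROR element on the reverse strand 12 bases before the start (AAGGTCA or TAGGTCA, found in 7.16% of windows). No other match was found in the windows of the 7 members with an entry. The motifs were the E-box, its variant CACGTT (in 4.68% of all windows), the D-box TTATGTAA or TTACGTAA (1.06%) and the ROR element. Both strands were searched, and matches were allowed to overlap. Bhlhe40 has no entry. A match describes the letters in this window and shows no binding.

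Libraries held 14362766 to 17774735 counts, of which 30.3% to 33.8% fell on mitochondrially encoded genes, and a count of 0 allows up to 0.169 to 0.209 CPM, counts scaled to a common library total (3 counts of the library, counting error only). Heart muscle markers were abundant everywhere: the 8 listed (Myh6, Tnnt2 and others) summed to 61840 to 64543 CPM of all counts in HFHS-Fe hearts and to 62498 to 67827 CPM in chow-Fe hearts. The quasi-likelihood test of edgeR was run on 14221 genes, of which 5417 (38.1%) had a Benjamini-Hochberg adjusted p under 0.05.

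In HFHS-Fe hearts the 3 PAR bZIP activators, Bhlhe41 and Ciart rose, while Nfil3, Bhlhe40 and Rora did not pass. The hour of collection is not given, so diet and hour cannot be told apart in any difference reported here for these genes. In all, 5 of 8 members were called higher and 0 lower. The background over all tested genes was 19.4% higher and 18.7% lower in the same edgeR test. DESeq2 called 4 members, all higher, beside 33.4% of genes in either direction, 18% higher and 15.4% lower. Without HFHS-Fe heart 2 edgeR called 4 members, beside 30.1% of genes, 15.6% higher and 14.5% lower. Without chow-Fe heart 1 it called 5 members, beside 29.4% of genes, 15.3% higher and 14.1% lower, and without chow-Fe heart 2 it called 4, beside 32.6% of genes, 16.8% higher and 15.7% lower. The groups did not overlap in 6 of the 8, where 58.5% of all tested genes do not overlap. The median log2 fold change of the 8 was 0.59, and that of all tested genes was -0.01. In bulk tissue, fewer cells of a type and less RNA per cell cannot be told apart.

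**Figure D1:**
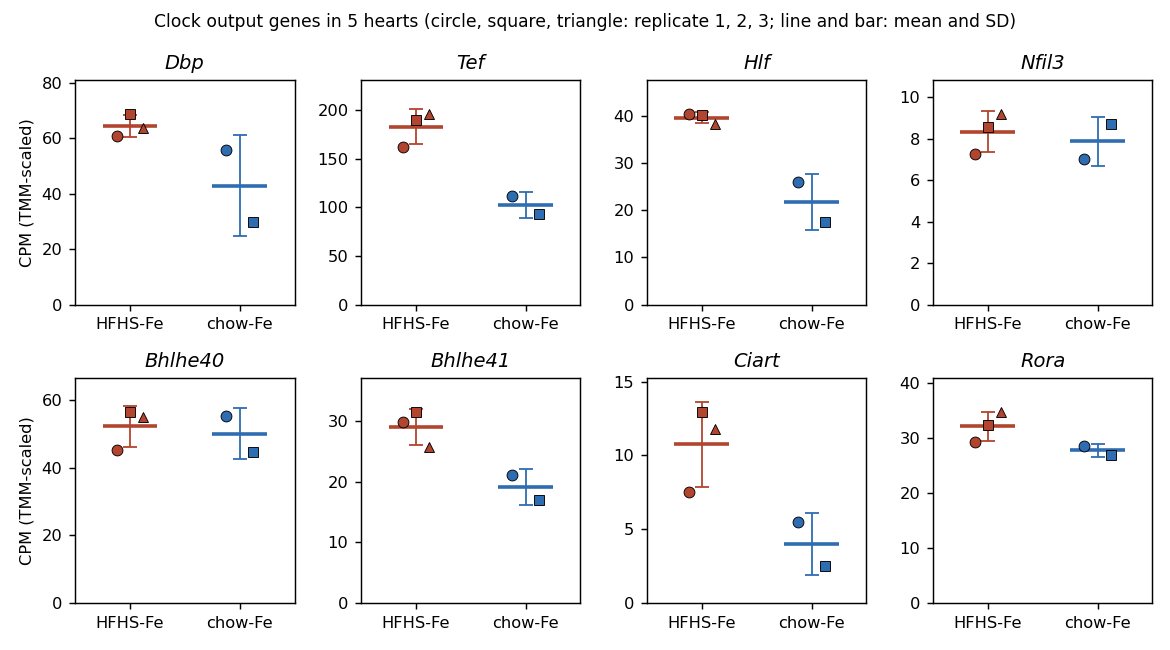
TMM-scaled CPM of each of the 8 genes in every heart, HFHS-Fe (red) left of chow-Fe (blue), with the mean as a line and the SD as a bar. Tef, Hlf, Bhlhe41, Ciart and Dbp sit higher in HFHS-Fe hearts, Rora stands only slightly apart, and the groups of Nfil3 and Bhlhe40 overlap; for Dbp the upper chow-Fe heart (55.9 CPM) lies near the lowest HFHS-Fe heart (60.8 CPM).

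Tef (ENSMUSG00000022389, chromosome 15 from 81802421 to 81826861, plus strand, GRCm38), the thyrotroph embryonic factor, had the most reads of the 8. It had 162, 189.7 and 196 CPM in HFHS-Fe hearts 1, 2 and 3, against 112 and 92.5 CPM in chow-Fe hearts 1 and 2. Every HFHS-Fe heart lay above both chow-Fe hearts, by a wide margin. Mean levels were 183 ± 17.8 CPM (SD, n = 3) and 102 ± 13.5 CPM (SD, n = 2), a log2 fold change of 0.84 (SE 0.0992), or 1.79-fold, with an edgeR adjusted p of 1.87e-05.

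Hlf (ENSMUSG00000003949, chromosome 11 from 90336536 to 90390895, minus strand), the hepatic leukemia factor, had 40.5, 40.2 and 38.3 CPM in HFHS-Fe hearts and 26.0 and 17.6 CPM in chow-Fe hearts. The HFHS-Fe hearts were nearly alike and the chow-Fe hearts were further apart, without overlap. Its log2 fold change was 0.86 (SE 0.132), or 1.82-fold, with an edgeR adjusted p of 0.000165.

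Dbp (ENSMUSG00000059824, chromosome 7 from 45705088 to 45710203, plus strand), the D-box binding factor whose transcript has the widest daily swing of the family in many tissues, had 60.8, 68.8 and 63.7 CPM in HFHS-Fe hearts and 55.9 and 30.0 CPM in chow-Fe hearts. The groups did not overlap, but chow-Fe heart 1 came close to the HFHS-Fe hearts and chow-Fe heart 2 was far below them. The log2 fold change was 0.58 (SE 0.175), or 1.50-fold, with an edgeR adjusted p of 0.0174. This call was lost without chow-Fe heart 2 (log2 fold change 0.20, edgeR adjusted p = 0.138), without HFHS-Fe heart 2 (0.53, 0.0659) and with DESeq2 (0.59, adjusted p = 0.161), and the log2 fold change was 1.10 without chow-Fe heart 1; over all alternatives the adjusted p ran from 2.11e-08 to 0.161. Exons of Dbp share 539 bases with Sphk2 on the opposite strand, which had 117 to 182 counts against 540 to 1033 for Dbp. Whether counting used strand is not given, so some reads could belong to either gene.

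Nfil3 (ENSMUSG00000056749, chromosome 13 from 52967209 to 52981073, minus strand), the bZIP repressor that lacks the PAR domain and is also known for its part in the making of natural killer cells, had few reads. It had 7.24, 8.54 and 9.19 CPM in HFHS-Fe hearts and 7.04 and 8.72 CPM in chow-Fe hearts. Both chow-Fe values lie within or just under the HFHS-Fe range. The log2 fold change was 0.08 (SE 0.164) with an edgeR adjusted p of 0.746. Its depth of 116 to 157 counts per library gives wide counting error.

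Set against each other per exon length, the summed PAR bZIP activators were 13.1, 12.6 and 11.4 times the level of Nfil3 in HFHS-Fe hearts and 10.6 and 5.67 times in chow-Fe hearts. All HFHS-Fe ratios lay above both chow-Fe ratios, with chow-Fe heart 2 far below the rest. The mean log2 ratio differed by 0.68 between diets (HFHS-Fe minus chow-Fe), by 0.23 without chow-Fe heart 2 and by 1.13 without chow-Fe heart 1. No test was made of this ratio, whose genes differ in exon length. The multiples, and the shares below, depend on the lengths used: 2993 bases for Dbp, 7865 for Tef, 6681 for Hlf and 2026 for Nfil3. The longest annotated transcripts have 1837, 4403, 5642 and 2026 bases in that order, and would give other multiples and shares. After removal of the length and GC trends, the log2 fold change of Nfil3 was 0.28, beside 0.65 for Dbp, 0.61 for Tef and 0.71 for Hlf, so the gap between them was narrower than 0.68. Tef supplied 43.9% to 48.0% of that sum in HFHS-Fe hearts, and 38.6% and 48.2% in chow-Fe hearts 1 and 2. Dbp supplied 41.0% to 43.3% in HFHS-Fe hearts, and 50.8% and 41.1% in chow-Fe hearts 1 and 2. The share of Hlf was 11.1% to 12.9% in HFHS-Fe hearts, against 10.6% and 10.8% in the chow-Fe hearts, so the make-up of the family overlapped between diets except for Hlf, whose shares lay close together.

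Of the pair of related basic helix-loop-helix repressors, Bhlhe41 rose and Bhlhe40 did not pass. Bhlhe41 (ENSMUSG00000030256, chromosome 6 from 145858243 to 145865558, minus strand) had 29.8, 31.4 and 25.7 CPM in HFHS-Fe hearts and 21.2 and 17.1 CPM in chow-Fe hearts. Its groups did not overlap, and the log2 fold change was 0.60 (SE 0.120), or 1.52-fold, with an edgeR adjusted p of 0.00130. Bhlhe40 (ENSMUSG00000030103, chromosome 6 from 108660629 to 108666925, plus strand), which also responds to hypoxia and many other stimuli, had 45.3, 56.3 and 55.1 CPM in HFHS-Fe hearts and 55.4 and 44.8 CPM in chow-Fe hearts. The groups overlapped, with 1 heart of each diet lower than the others by a similar step. The log2 fold change of Bhlhe40 was 0.06 (SE 0.111), with an edgeR adjusted p of 0.708. Per exon length, Bhlhe40 was 2.17, 2.56 and 3.06 times as abundant as Bhlhe41 in HFHS-Fe hearts and 3.74 and 3.75 times in chow-Fe hearts, ratios that did not overlap between diets. Gm43909 on the opposite strand shares 1280 exon bases with Bhlhe41 and had 11 to 27 counts, against 307 to 477 for Bhlhe41. The genes that overlap exons of Tef, Bhlhe40 and Rora on the opposite strand had 0 to 4 counts per library.

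Ciart (ENSMUSG00000038550, chromosome 3 from 95878503 to 95882251, minus strand), which encodes the circadian associated repressor of transcription, had the largest fold change of the 8. It had 7.49, 12.9 and 11.8 CPM in HFHS-Fe hearts and 5.47 and 2.50 CPM in chow-Fe hearts. The hearts were uneven within both groups, yet the lowest HFHS-Fe heart stood above the highest chow-Fe heart. The log2 fold change was 1.42 (SE 0.283), or 2.68-fold, with an edgeR adjusted p of 0.00127. It was 2.09 without chow-Fe heart 1 and 0.97 without chow-Fe heart 2, and the call held in both. The depth was 45 to 180 counts per library.

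Rora (ENSMUSG00000032238, chromosome 9 from 68653786 to 69388246, plus strand), the activator of Arntl, had 29.4, 32.4 and 34.7 CPM in HFHS-Fe hearts and 28.6 and 26.9 CPM in chow-Fe hearts. The groups did not overlap but almost touched, and the log2 fold change of 0.21 (SE 0.0987) did not pass, with an edgeR adjusted p of 0.110. It is the longest member, with 13071 exon bases, and its sign changed to -0.11 when trends on exon length and GC content were removed (edgeR adjusted p = 0.446; 0.0651 to 0.446 over all alternatives).

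Levels were put in order per kilobase of exon, since longer genes collect more reads. In HFHS-Fe hearts Tef (23.2 ± 2.27 CPM per kb, SD, n = 3) and Dbp (21.5 ± 1.36) led and overlapped, followed by Bhlhe40 (11.1 ± 1.28) and Hlf (5.94 ± 0.176). Ciart (4.75 ± 1.27), Bhlhe41 (4.31 ± 0.436) and Nfil3 (4.11 ± 0.489) came next, and each overlapped its neighbour, while Rora was lowest (2.46 ± 0.207) and stood apart. In chow-Fe hearts Dbp (14.4 ± 6.13 CPM per kb, SD, n = 2), Tef (13.0 ± 1.72) and Bhlhe40 (10.6 ± 1.59) overlapped in turn at the top. Nfil3 (3.89 ± 0.587), Hlf (3.26 ± 0.898) and Bhlhe41 (2.84 ± 0.433) followed with overlap, then Rora (2.13 ± 0.0918) and Ciart (1.76 ± 0.928), which overlapped each other. Ciart thus ranked 5 of 8 by mean in HFHS-Fe hearts and 8 of 8 in chow-Fe hearts.

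**Figure D2:**
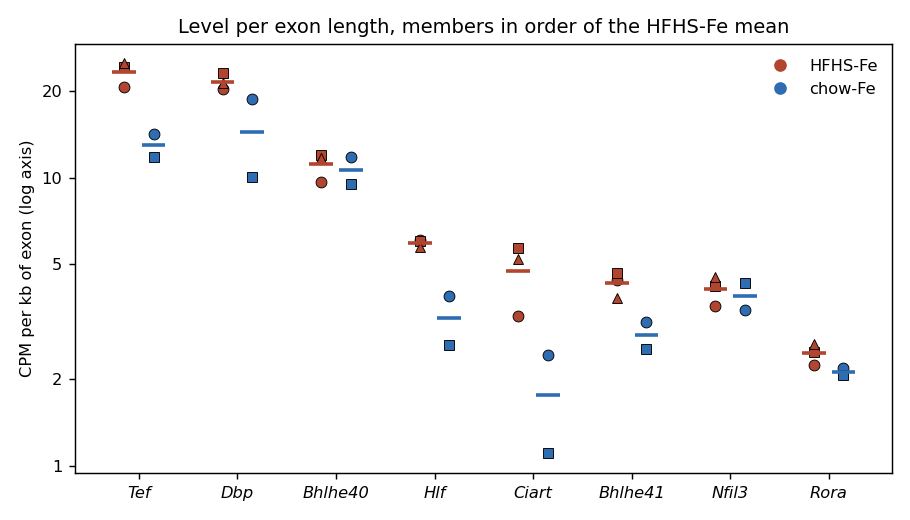
Level of each gene per kilobase of exon on a log axis, one point per heart (circle, square and triangle for replicates 1, 2 and 3) and the group mean as a line, HFHS-Fe (red) left of chow-Fe (blue). Tef and Dbp lead in both groups, and Ciart spans 1.11 to 5.71 CPM per kb over the 5 hearts.

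Hearts (libraries) of the same diet also differed in these genes. Whether they came from separate mice is not given, so these gaps may be technical. Chow-Fe heart 2 was the lowest of the 5 hearts for 7 of the 8 members (all but Nfil3), against 21.3% of all tested genes. Between the 2 chow-Fe hearts it was the lower for the same 7 of 8, against 50% of all tested genes. On the scale of log2(CPM + 0.5), chow-Fe heart 1 exceeded chow-Fe heart 2 by 0.99 for Ciart, 0.89 for Dbp and 0.56 for Hlf. A gap at least that wide, in either direction, occurred in 0.893%, 1.39% and 6.86% of tested genes. The gaps of Tef (0.27), Bhlhe40 (0.30), Bhlhe41 (0.30), Nfil3 (-0.29) and Rora (0.09) were matched or passed by 23.5% to 69.1% of tested genes. Among HFHS-Fe hearts, heart 1 was the lowest for 6 of 8 members, against 33.7% of all tested genes; Ciart had a range of 0.75, reached by 6.26% of tested genes, and Hlf a range of 0.08, reached by 89.7%.

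The core clock genes in the same hearts moved in both directions. Of 12 genes (among them the CLOCK, BMAL, PER, CRY and REV-ERB genes), 6 rose, 1 fell and 5 did not pass, beside 19.4% of all tested genes higher and 18.7% lower, with a median log2 fold change of 0.39 beside -0.01 for all tested genes. After removal of the length and GC trends 6 rose and 2 fell, the second being Clock (log2 fold change -0.40, edgeR adjusted p = 0.00737, against -0.08 before). Arntl, which encodes BMAL1, had 5.31, 3.23 and 3.58 CPM in HFHS-Fe hearts and 9.53 and 12.8 CPM in chow-Fe hearts. It was 2.74-fold lower in HFHS-Fe hearts, without overlap (log2 fold change -1.45, SE 0.208, edgeR adjusted p = 9.54e-05). Among the repressor genes, Per2 had 22.0, 29.2 and 34.1 CPM in HFHS-Fe hearts against 16.8 and 15.2 CPM in chow-Fe hearts, 1.78-fold higher (edgeR adjusted p = 0.000687). Cry2 had 32.7, 39.4 and 33.1 CPM in HFHS-Fe hearts against 21.8 and 20.4 CPM in chow-Fe hearts, 1.66-fold higher (edgeR adjusted p = 0.000110). For each of the 3, no heart crossed into the other group's range. Dbp was 28.8, 53.6 and 44.7 times as abundant as Arntl per exon length in HFHS-Fe hearts and 14.8 and 5.90 times in chow-Fe hearts; for Ciart the ratios were 4.70, 13.3 and 10.99 in HFHS-Fe hearts and 1.91 and 0.651 in chow-Fe hearts. Within the chow-Fe group the heart with less Dbp and Ciart had more Arntl. Within the HFHS-Fe group heart 1, with the least Dbp and Ciart, had the most Arntl. The HFHS-Fe hearts differed little in Dbp, with a log2 range reached by 62.7% of tested genes, against 6.26% for Ciart. HFHS-Fe heart 1 was the lowest of its group for 6 of 8 members, but Hlf (40.5 CPM) and Nr1d1 (87.8 CPM) were highest in it. Whether these genes oppose Arntl between hearts of a diet was not tested.

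**Figure D3:**
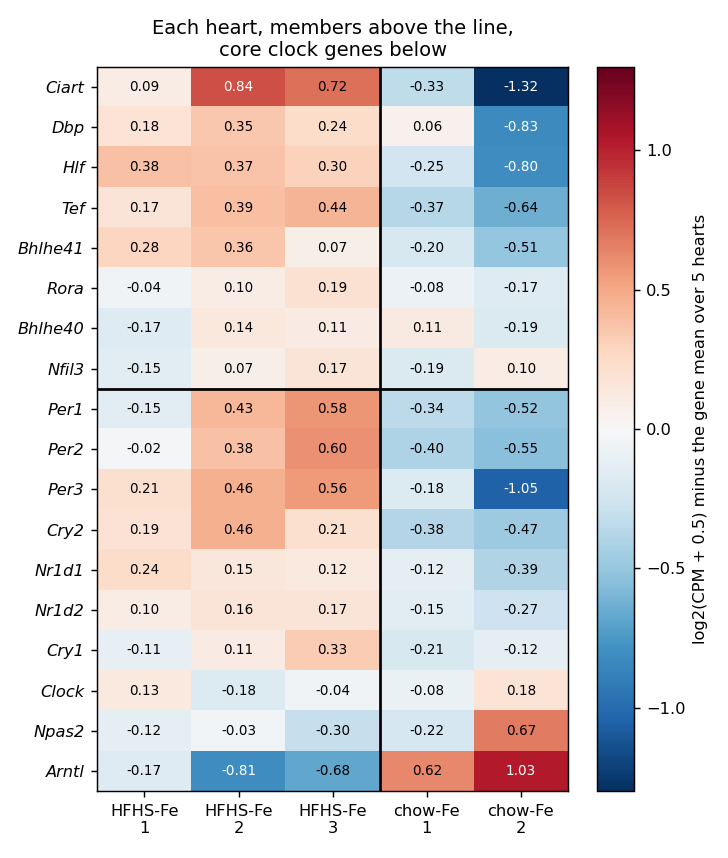
Each heart's log2(CPM + 0.5) minus the gene's mean over the 5 hearts, for the 8 genes above the horizontal line and 10 core clock genes below it, HFHS-Fe hearts left of the vertical line. Ciart runs from 0.84 in HFHS-Fe heart 2 to -1.32 in chow-Fe heart 2, while Arntl runs the other way, from -0.81 in HFHS-Fe heart 2 to 1.03 in chow-Fe heart 2.

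Fold changes over all genes followed exon length, which bears on these genes because they are 2026 to 13071 bases long. The median log2 fold change of tested genes was -0.32 in the bin of genes that holds Nfil3, -0.18 in that of Ciart, -0.12 in that of Dbp, 0.03 in that of Bhlhe40, 0.15 in that of Hlf and Bhlhe41, 0.21 in that of Tef and 0.32 in that of Rora (10 bins by length with nearly equal numbers of genes). The medians of the bins of Ciart and Dbp lay below 0, while Rora lay at 0.21, below its bin's median. After removal of the length and GC trends from every library, the same 5 members were called higher and 0 lower, beside 31% of tested genes in either direction, 14.6% higher and 16.4% lower. Their log2 fold changes were then 1.58 for Ciart, 0.71 for Hlf, 0.65 for Dbp, 0.61 for Tef and 0.43 for Bhlhe41, with edgeR adjusted p of 0.000881, 0.00112, 0.0138, 0.000505 and 0.0119 in that order.

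**Figure D4:**
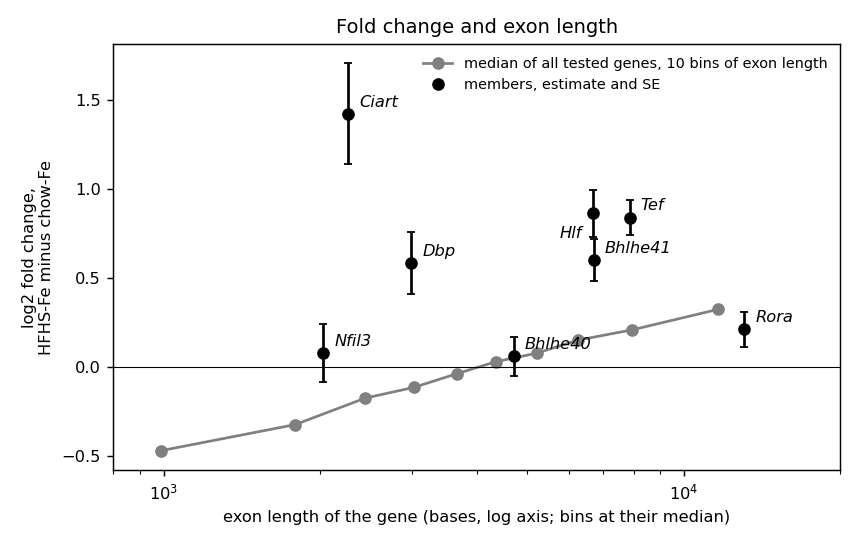
Log2 fold change (HFHS-Fe minus chow-Fe) of the 8 genes, with SE, against exon length on a log axis, with the median of all tested genes in 10 bins of length in grey. The medians climb from -0.47 to 0.32; Ciart, Dbp, Hlf, Tef, Bhlhe41 and Nfil3 lie above the grey line, Bhlhe40 lies close to it and Rora under it.

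**Figure D5:**
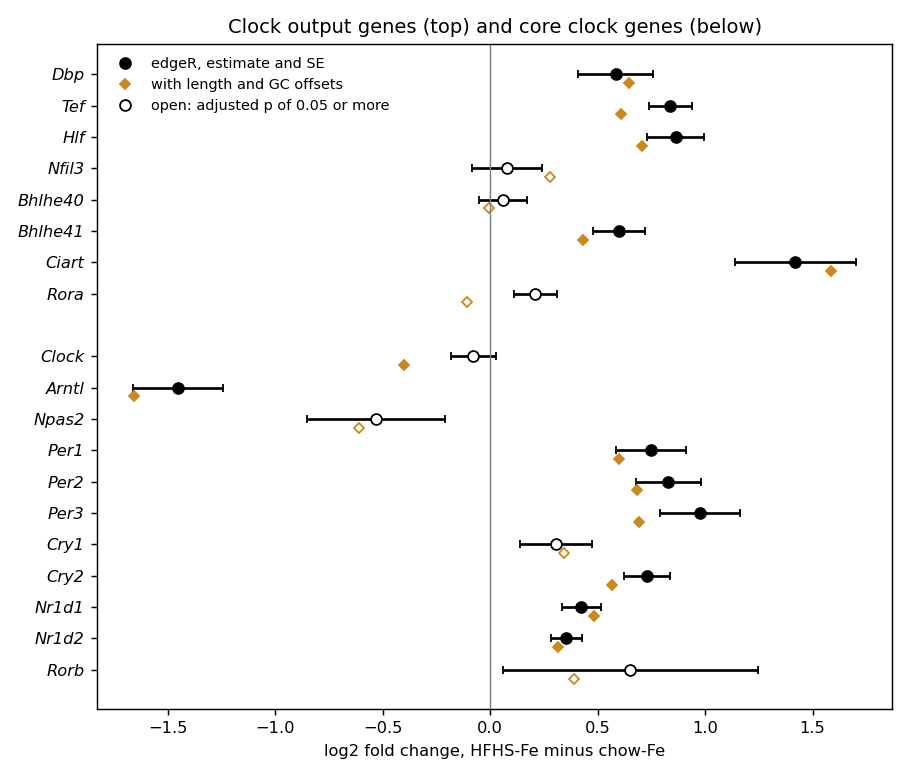
Log2 fold change with SE (black circles) and after removal of the length and GC trends (orange diamonds) for the 8 genes and, below, core clock genes; filled symbols passed an adjusted p of 0.05. Ciart is the rightmost at 1.42 and Arntl the leftmost at -1.45, and the offsets turn the sign of Rora and Bhlhe40.

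Genes downstream of the clock were counted from lists. Of 10 genes described as dependent on PAR bZIP factors in mouse liver, kidney or brain, 7 had enough counts to be tested (not Cyp2a5, Cyp7a1 and Ces2a, with 0 or 1 count per library); 5 of the 7 rose and none fell, beside 19.4% of all tested genes higher and 18.7% lower, with a median log2 fold change of 0.52. Ppara, the fatty acid receptor gene, had 33.0, 27.2 and 35.6 CPM in HFHS-Fe hearts against 8.39 and 8.33 CPM in chow-Fe hearts. Alas1, the first enzyme of haem synthesis outside red cells, rose 1.64-fold (edgeR adjusted p = 9.54e-05). Pdxk, which makes active vitamin B6, rose 1.44-fold (edgeR adjusted p = 0.00799), a call lost without chow-Fe heart 1 (edgeR adjusted p = 0.0802; 0.000503 to 0.0802 over all alternatives), when 3 of the list were called, beside 15.3% of all tested genes higher.

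Of 10 genes described as outputs of the clock in heart muscle, 5 rose and none fell, beside 19.4% and 18.7% of all tested genes, with a median log2 fold change of 0.30. Without chow-Fe heart 2, 8 were called, beside 32.6% of all tested genes in either direction. Pik3r1, the regulatory subunit of phosphoinositide 3-kinase, rose 1.89-fold (edgeR adjusted p = 5.71e-06). Dgat2, which makes triglyceride, rose 1.35-fold (edgeR adjusted p = 0.000781).

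Of 5 genes rhythmic in many mouse organs outside the core loop, 3 rose and 1 fell, beside 19.4% and 18.7% of all tested genes, with a median log2 fold change of 0.21. Usp2, a deubiquitinase of clock proteins, had 107, 109.8 and 108 CPM in HFHS-Fe hearts against 51.9 and 61.0 CPM in chow-Fe hearts, and rose 1.92-fold (edgeR adjusted p = 1.73e-06). Wee1, a cell cycle kinase with E-box control in liver, rose 1.58-fold (edgeR adjusted p = 0.000835). Tsc22d3, a glucocorticoid-induced gene, fell to 68.6 ± 7.73 CPM (SD, n = 3) in HFHS-Fe hearts against 99.5 ± 19.9 CPM (SD, n = 2) in chow-Fe hearts (edgeR adjusted p = 0.00216).

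The list of genes acting on clock proteins held 11 (kinases, ubiquitin ligases, corepressors and the deubiquitinase Usp2), of which 10 were tested. Of these 7 rose and none fell, beside 19.4% and 18.7% of all tested genes, with a median log2 fold change of 0.30. The corepressor gene Ncor1 rose 1.67-fold (edgeR adjusted p = 3.08e-06), and the kinase gene Gsk3b rose 1.50-fold (edgeR adjusted p = 9.60e-05); Usp2 is also of this list. With the length and GC offsets 4 of the 10 rose, beside 14.6% of all tested genes, and the median was 0.18. The log2 fold change was then 0.39 for Ncor1 (0.74 before) and 0.34 for Gsk3b (0.58 before). Without HFHS-Fe heart 2 and without chow-Fe heart 1, 4 were called each time, beside 30.1% and 29.4% of all tested genes in either direction.

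The tested genes nearest to each member over the 5 hearts were found by the root mean square difference of centred log2(CPM + 0.5), among 12008 other genes. Tef was nearest to Cpeb4 (0.0430) and Cep170b (0.0546), and Hlf to Thada (0.0335) and Crat (0.0457), the carnitine acetyltransferase gene. Dbp was nearest to Rad9b (0.0464) and Zgrf1 (0.0878), Bhlhe41 to Rab3gap2 (0.0311) and Mtm1 (0.0457). Rad9b and Zgrf1 were low (means of 2.95 and 2.09 CPM in HFHS-Fe hearts) and not called (edgeR adjusted p = 0.106 and 0.0525). Rab3gap2 and Mtm1 were called, but not with the length and GC offsets (edgeR adjusted p = 0.103 and 0.0522). Ciart had no close neighbour, with Kif26b at 0.212 and Kcnc1 at 0.220. Nfil3 was nearest to Poll (0.0297) and Nqo1 (0.0310), Bhlhe40 to Pdss1 (0.0236) and Ptpn2 (0.0295), and Rora to Asb10 (0.0130) and Caskin2 (0.0144). Among the members themselves the closest pairs were Bhlhe40 with Rora (0.113), Nfil3 with Rora (0.138) and Tef with Hlf (0.145), and Ciart was 0.388 from both Tef and Hlf. Every member was closer to its nearest other gene than to any other member. That gene was picked as the closest of 12008, while the other members are few. This outcome therefore does not show whether the members move together. The distance is not scaled to how much a gene varies, so genes that vary little lie close together and genes that vary much lie far apart. Bhlhe40, Rora and Nfil3, of the closest 2 pairs, were not called, and Ciart had the largest fold change of the members. These distances describe 5 libraries that all genes share.

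Markers of other cells moved in the same hearts, where 19.4% of all tested genes were called higher and 18.7% lower. The 8 fibroblast markers summed to 844 to 909 CPM of all counts in HFHS-Fe hearts and 1344 to 1470 CPM in chow-Fe hearts, and 8 of 8 fell. The 8 endothelial markers summed to 829 to 858 CPM in HFHS-Fe hearts and 1096 to 1126 CPM in chow-Fe hearts, with 6 of 8 lower, and the 8 markers of pericytes and smooth muscle to 1261 to 1324 CPM in HFHS-Fe hearts and 1443 to 1444 CPM in chow-Fe hearts, with 3 lower and 1 higher. All 10 macrophage markers fell (181 to 213 CPM in HFHS-Fe hearts against 477 to 551 CPM in chow-Fe hearts), as did all 5 red cell markers (250.2 to 524 CPM in HFHS-Fe hearts against 1484 to 1699 CPM in chow-Fe hearts). The 8 lymphoid markers were near the limit, at 1.39 to 2.12 CPM in sum in HFHS-Fe hearts and 2.25 to 4.78 CPM in chow-Fe hearts, and only 1 was tested. Of the 8 heart muscle markers 2 rose and 4 fell. With the length and GC offsets 14.6% of all tested genes were higher and 16.4% lower. In that fit 6 fibroblast, 7 endothelial, 10 macrophage and 5 red cell markers fell. Pericyte and smooth muscle markers then had 2 lower and 1 higher, and heart muscle markers 4 lower and 4 higher. The lymphoid marker was then not called. No marker was at 0 in every library, and the part of cell make-up in the members' differences was not tested.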

How the data were processed

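Poly-A RNA of mouse hearts was sequenced in 3 HFHS-Fe and 2 chow-Fe libraries. The authors deposited raw counts per gene, 1 table per library, with exon coordinates and exon length, per the file headers. Tools named in the submitters' processing notes are Trimmomatic 0.36, STAR 2.5.2b and, for counting, featureCounts (Subread 1.5.2), with the build GRCm38. Not given in the sources used here: options, strand setting, annotation release. Symbols came from GENCODE M21 (GRCm38), which held 49056 of the 49315 genes, 91.4% with the same start and end. Coordinates are those of the count tables; promoter sequences are from RefSeq.

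The main test used edgeR 4.0.16 under R 4.3.3 (filterByExpr, TMM, glmQLFit and glmQLFTest on diet, Benjamini-Hochberg over all tested genes). Fold changes are HFHS-Fe over chow-Fe; each standard error is approximated as the coefficient over the root of F. CPM use TMM-scaled library sizes of tested genes, marker sums the total counts. Offsets came from smooth trends (mgcv 1.9.3) on exon length and GC of the transcripts. Other alternatives were DESeq2 1.42.0, limma-voom (limma 3.58.1), other size factors and filters, no mitochondrially encoded genes, each library left out, a replicate block and a stricter threshold. The fit was tested on simulated data. Pairs of libraries of a diet differed by more than sampling noise (chi-square per degree of freedom 2.64 to 8.84), so none was treated as a duplicate of another; this does not show that they came from separate mice. Named genes were the 8 members, the 3 genes of each other list with the smallest p, and the 2 genes nearest to each member; some genes that the lists count are not reported here by name. Members, lists and tests were chosen with earlier results of these data known, so no list is independent support.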

Additional observations from a re-analysis of the deposited data

How the results depend on the processing

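The count of genes called lay between 3622 (adjusted p of 0.01) and 5565 (no filter) under every alternative, within 1.5 times of 5417, and the members called were 4 or 5 of 8, all higher. Tef, Hlf, Bhlhe41 and Ciart kept direction and call under every alternative; Dbp lost its call in the 3 fits named with it and at an adjusted p of 0.01. Removing the length and GC trends turned the log2 fold change to -0.0082 for Bhlhe40 and -0.107 for Rora, neither called. Leaving out 1 library turned the sign of genes that were not called: log2 fold changes ran from -0.069 (without chow-Fe heart 1) to 0.239 for Nfil3, from -0.0863 (without chow-Fe heart 2) to 0.222 for Bhlhe40, from -0.0657 to 0.172 for Poll, from -0.0368 to 0.197 for Nqo1, from -0.0396 to 0.269 for Pdss1 and from -0.0772 to 0.227 for Ptpn2; the cause was not tested. Leaving out 1 library gave 4 to 8 called genes of the heart muscle outputs, 3 to 5 of the PAR bZIP dependent genes and 4 to 7 of the genes acting on clock proteins; the last gave 4 with the offsets and 4 at an adjusted p of 0.01. Upper quartile scaling gave 2477 higher and 2973 lower genes. All 8 members kept their place in the order of levels in HFHS-Fe hearts with the longest annotated transcript as length. Ratios and shares between genes were not repeated with that length.

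The labels do not say whether replicate numbers pair libraries across diets. Deviations from the group means correlated at 0.0345 for number 1 and 0.00727 for number 2 across genes, and there are only 2 pairs. The 2 chow-Fe hearts deviate from their mean by equal and opposite amounts. Both values therefore rest on 1 chow-Fe contrast and cannot decide whether the numbers pair libraries. With the replicate block 5332 genes were called, with no change of a call among the members, and the log2 fold change of Poll turned to -0.0338. Ciart (45 to 180 counts) and Nfil3 (116 to 157 counts) are the members most limited by depth.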

Other observations

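Motifs were also counted in the promoter windows of the other lists. Of 15 windows of 10 core clock genes with an entry, 2 held an E-box (Per1 and Cry1), 4 held its variant CACGTT (Cry1, Cry2, Nr1d1 and Rorb), 1 held a D-box (Per3) and 1 held a ROR element (Arntl). Of 8 windows of 7 members, 4 held an E-box (Bhlhe41, Ciart and both of Tef) and 1 held a ROR element (Nfil3). Among 10 windows of the genes described as dependent on PAR bZIP factors none held a D-box, and 2 held an E-box (Pdxk and Nr1i3). These counts describe the letters in the windows and were not tested.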
